A study of Arabidopsis thaliana with 10 samples.

Results

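Triploid peg2 seeds are hybrid seeds of Arabidopsis thaliana in which the pollen brought an extra genome and a mutated copy of PEG2 (AT1G49290), and they were compared here with diploid seeds to describe which mRNA levels still departed from the diploid state. Diploid seeds came from wild-type Landsberg erecta (Ler) plants pollinated with wild-type Columbia (Col), and triploid peg2 seeds from wild-type Ler plants pollinated with the peg2 osd1 double mutant in Col. Loss of OSD1 (AT3G57860) makes pollen skip the second meiotic division, so that it delivers unreduced sperm, and the osd1 allele had been moved into Col from another accession by backcrossing. The comparison used 4 of the 10 libraries of the series, 2 for each cross, and each library was made from the seeds of 20 siliques harvested at 6 days after pollination (DAP). Libraries of triploid seeds from adm-2 osd1 and suvh7-1 osd1 pollen, 2 for each cross, served only to show where triploid peg2 seeds differed from other triploid mutants. Mothers were wild type in every cross, so that all seed coats were Ler tissue of the mother and the mutations were inherited through pollen alone. The peg2 mutation was represented by a single insertion line. Ploidy, the osd1 mutation and the peg2 mutation cannot be told apart as sources of a difference between these groups.

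A seed holds an embryo, an endosperm and a maternal coat. The endosperm first divides its nuclei without walls and later forms cells, and the timing of this cellularization depends on the balance of maternal and paternal genomes. Polycomb group proteins keep type I MADS-box genes and many paternally expressed imprinted genes (PEGs) in check, and excess paternal genomes are known to raise these genes and to delay cellularization. Embryo growth after cellularization is followed by maturation, in which the B3 and LEC1-type regulators turn on the genes of oil and storage protein.

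Levels are RPKM as deposited by the authors, which scale reads to gene length and library depth, and cover 33602 genes, and 18309 genes with a mean of at least 1 RPKM over the 4 libraries were tested on the log2(RPKM + 0.1) scale. Fold changes are differences of the mean log2(RPKM + 0.1) of triploid peg2 and diploid seeds, and they understate the change of genes near 0. Replicate libraries had a Pearson's r of 0.992 in diploid and 0.991 in triploid peg2 seeds, computed over genes, which are not independent replicates. The median difference between replicates was 0.111 on the log2 scale in diploid seeds and 0.107 in triploid peg2 seeds. Summed RPKM came to between 700509 and 743974, and ribosomal RNA made up 11.6% to 17.3% of it. Absolute depth is unknown, and steps between low values put the depth of the other 3 libraries at 0.862 to 0.936 of replicate 1 of diploid seeds. P values measure the spread between these seed pools only, and with whole seeds fewer cells of a type and less RNA per cell cannot be told apart.

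The mutated genes were examined first. In the TAIR10.1 assembly OSD1 lies at chr3:21426285-21428340 and PEG2 at chr1:18232407-18233680. OSD1 was at 8.83 and 7.02 RPKM in diploid and 0.864 and 1.67 RPKM in triploid peg2 seeds (log2 fold change -2.61 ± 0.30 (SE), adjusted p = 9.8e-04), so that both triploid peg2 libraries stood below both diploid libraries. OSD1 was at 3.35 and 2.94 RPKM in triploid adm-2 and 2.57 and 3.03 RPKM in triploid suvh7-1 seeds, whose pollen also carried osd1. By limma, triploid peg2 seeds differed by -1.31 (adjusted p = 0.0092) from triploid adm-2 and -1.14 (adjusted p = 0.024) from triploid suvh7-1 seeds. PEG2 was near 0 throughout, at 0 and 0.0151 RPKM in diploid and 0.238 and 0.0808 RPKM in triploid peg2 seeds, and did not reach the minimum level for the test (adjusted p = 0.044 and a log2 fold change of 1.20 in the fit without a minimum level). It was at 1.34 and 0.908 RPKM in triploid adm-2 and 0.646 and 0.605 RPKM in triploid suvh7-1 seeds, above both triploid peg2 libraries in all 4 cases. Genes within 1 Mb of PEG2 and OSD1 did not form a block of changed genes. Of 301 tested genes around PEG2, 10.3% were higher and 14.6% lower, and of 398 around OSD1, 7.79% were higher and 9.05% lower. Over 111 windows of 1 Mb with at least 30 tested genes, the share of higher genes ran from 0 to 17.3% and that of lower genes from 0 to 20.4%.

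Triploid peg2 seeds differed from diploid seeds in a large part of the transcriptome. By limma with an adjusted p under 0.05 and a change past 2-fold, 1532 genes were higher, 8.37% of those tested, and 2162 were lower, 11.8%, so that 20.2% changed. At any fold change 57.8% had an adjusted p under 0.05, 22.9% with higher and 35.0% with lower levels. The median of all tested genes was -0.11 on the log2 scale. A median-of-ratios size factor moved this median by 0.11 to 0.00 and gave 1717 higher and 1910 lower genes. The raised genes moved further, as their log2 fold changes had a median of 2.32 and those of the lowered genes a median of -1.63, and 258 raised genes against 45 lowered genes were past 32-fold. Of the raised genes, 704 had a diploid mean under 1 RPKM, so that they entered the test only through their level in triploid peg2 seeds, and 435 lowered genes had a mean under 1 RPKM in triploid peg2 seeds and entered it only through diploid seeds. The 2 libraries of each group did not overlap with those of the other for 81.9% of all tested genes, so absence of overlap alone marks no gene here. The rank product, the method of the study, called 114 genes higher (0.623%) and 89 lower (0.486%), and limma called each of these in the same direction.

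**Figure D1:**
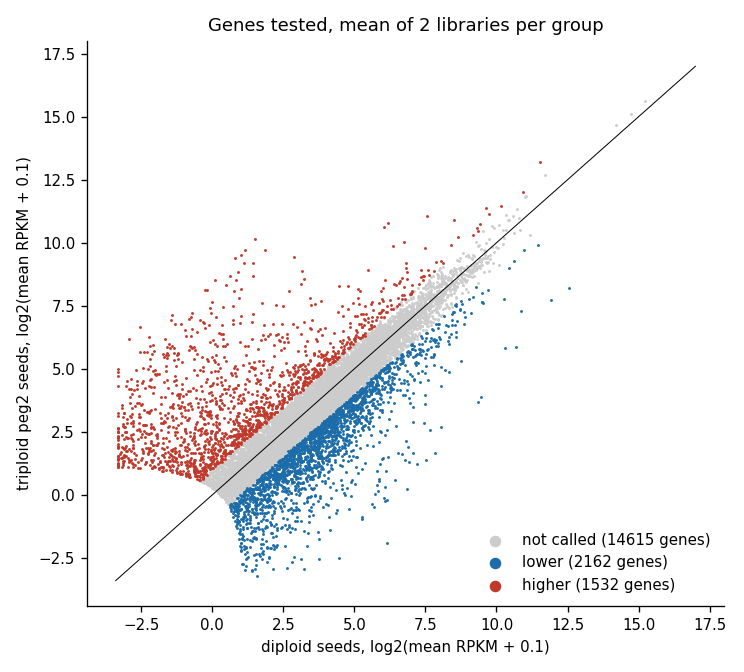
Mean RPKM of the 18309 tested genes in diploid seeds (x axis) and triploid peg2 seeds (y axis), both as log2(RPKM + 0.1), 1 point per gene, with the line of equality. The 1532 genes called higher (red) reach further from the line than the 2162 genes called lower (blue), and many of them start near 0 in diploid seeds.

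Most of the 16 paternally expressed imprinted genes listed here, those named by the study, were far above the diploid level. The study had selected 10 PEGs that it found, apart from VIM5, strongly raised in triploid seeds. A rise of this list is therefore no independent result. Of the 16 PEGs, 12 reached the minimum level, 7 of them only through triploid peg2 seeds. Of these 12, 10 were higher and 0 lower, against 8.37% and 11.8% of all tested genes. Without the minimum level all 16 could be tested and 13 were higher, against 9.03% of the 26703 genes tested in that way. The 13 included the mutated gene PEG2 itself, which was near 0 in both groups (log2 fold change 1.20, adjusted p = 0.044 by limma). The kinase gene PEG7 (AT3G50720) rose most, at 0.0748 and 0.0135 RPKM in diploid and 7.56 and 6.79 RPKM in triploid peg2 seeds (log2 fold change 5.69 ± 0.28 (SE), adjusted p = 6.0e-05). HDG10 (AT1G34650), a homeodomain gene, was at 0.0129 and 0.014 RPKM in diploid and 3.89 and 3.21 RPKM in triploid peg2 seeds (log2 fold change 5.0 ± 0.28 (SE), adjusted p = 8.5e-05), and the F-box gene PEG3 (AT1G60400) was at 0.0233 and 0.038 RPKM in diploid and 3.48 and 3.46 RPKM in triploid peg2 seeds (log2 fold change 4.78 ± 0.27 (SE), adjusted p = 8.1e-05). In all 3 genes both diploid libraries were below 0.1 RPKM and the groups lay far apart.

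The other raised PEGs covered a range of functions. SUVH7 (AT1G17770), which encodes a putative histone methyltransferase, was at 0.0883 and 0.133 RPKM in diploid and 3.1 and 3.02 RPKM in triploid peg2 seeds (log2 fold change 3.92 ± 0.25 (SE), adjusted p = 1.3e-04). ADM (AT4G11940) was at 0.0356 and 0.212 RPKM in diploid and 2.82 and 2.23 RPKM in triploid peg2 seeds (log2 fold change 3.67 ± 0.45 (SE), adjusted p = 0.0012). YUC10 (AT1G48910), an auxin synthesis gene, was at 2.26 and 2.12 RPKM in diploid and 8.9 and 7.74 RPKM in triploid peg2 seeds (log2 fold change 1.88 ± 0.12 (SE), adjusted p = 1.2e-04), so that a gene already active in diploid seeds rose as well. PEG1 (AT1G11810), PEG5 (AT2G36560) and PEG6 (AT3G49770) and the chromatin remodeler PKR2 (AT4G31900) had log2 fold changes of 4.06, 2.89, 3.91 and 2.25, all called. PEG4 (AT1G66630) and PEG8 (AT4G05470) were listed at 0 in at least 1 diploid library and at 0.89 and 0.818 and at 0.91 and 1.51 RPKM in triploid peg2 seeds, below the minimum level but called in the fit without it.

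A few PEGs did not move with the rest. VIM5 (AT1G57800), a RING finger gene with the highest level among the 16, was at 16.4 and 17.4 RPKM in diploid and 18 and 19.9 RPKM in triploid peg2 seeds (log2 fold change 0.16 ± 0.09 (SE), adjusted p = 0.15). FXG1 (AT1G67830), an alpha-fucosidase gene, was at 9.97 and 7.68 RPKM in diploid and 12.3 and 12.3 RPKM in triploid peg2 seeds, and its log2 fold change of 0.49 passed the test but not the 2-fold limit. PEG9 (AT5G15140), which encodes a putative galactose mutarotase, was at 0.106 and 0.211 RPKM in diploid and 0.472 and 0.236 RPKM in triploid peg2 seeds, and its groups differed by less than the fit could call (adjusted p = 0.15 without the minimum level).

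**Figure D2:**
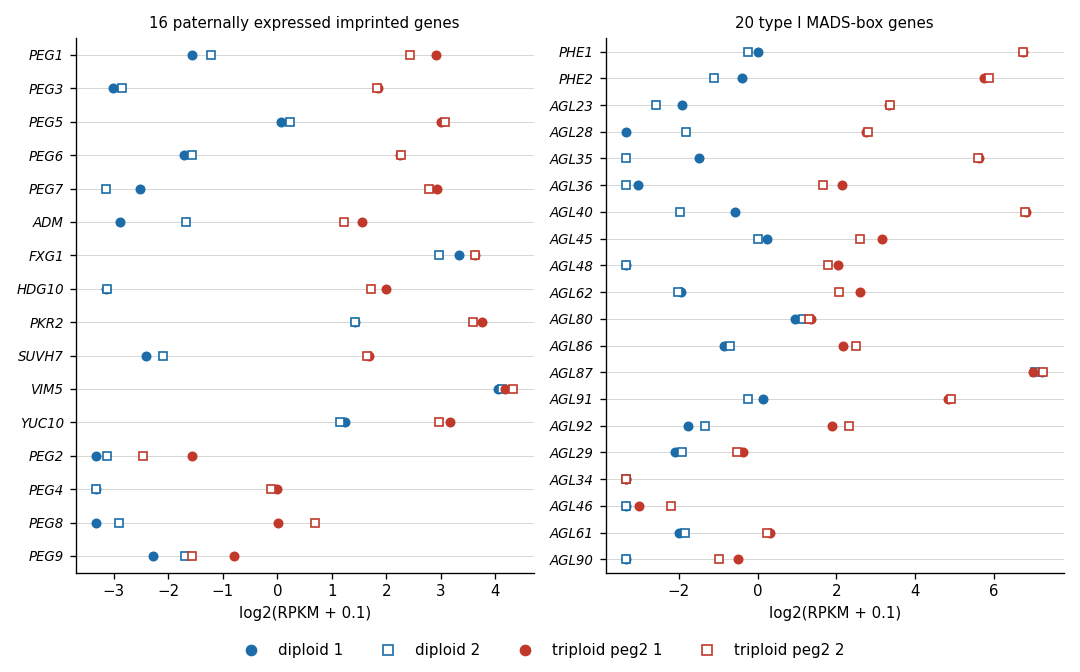
Level of each gene in each library as log2(RPKM + 0.1) (x axis) for the 16 PEGs (left) and 20 type I MADS-box genes (right), diploid libraries in blue and triploid peg2 libraries in red, replicate 1 filled and replicate 2 open. Red points lie to the right of blue points in nearly all rows, with VIM5, FXG1, PEG9, AGL46, AGL80 and AGL87 among the rows where the colours are close and AGL34 at 0 in all 4 libraries.

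Type I MADS-box genes encode transcription factors of the endosperm and female gametophyte. Their tested members had a median log2 fold change of 5.07, the highest of the lists. Members low in both groups were not tested, which favours a high median here. Of 20 genes, 15 reached the minimum level, 13 of them only through triploid peg2 seeds. Of these 15, 13 were higher and 0 lower, against 8.37% and 11.8% of all tested genes. In the fit without the minimum level 19 could be tested and 16 were higher, against 9.03% of all genes in that fit. AGL40 (AT4G36590) was at 0.569 and 0.154 RPKM in diploid and 112 and 109.9 RPKM in triploid peg2 seeds (log2 fold change 8.07 ± 0.43 (SE), adjusted p = 7.0e-05), AGL35 (AT5G26630) at 0.258 and 0 RPKM in diploid and 48.6 and 48.1 RPKM in triploid peg2 seeds (log2 fold change 8.0 ± 0.56 (SE), adjusted p = 1.7e-04) and PHE1 (AT1G65330) at 0.909 and 0.749 RPKM in diploid and 107 and 106 RPKM in triploid peg2 seeds (log2 fold change 6.85 ± 0.11 (SE), adjusted p = 3.9e-06). The replicates of triploid peg2 seeds were within 2 RPKM of each other in all 3 genes. AGL62 (AT5G60440), a repressor of cellularization, was at 0.162 and 0.149 RPKM in diploid and 5.97 and 4.11 RPKM in triploid peg2 seeds (log2 fold change 4.31 ± 0.25 (SE), adjusted p = 9.4e-05). AGL87 (AT1G22590), the most abundant member, was at 149 and 131 RPKM in diploid and 126 and 151 RPKM in triploid peg2 seeds (log2 fold change -0.02 ± 0.12 (SE), adjusted p = 0.92), and its groups overlapped. PHE1, PHE2 (AT1G65300) and several other members have close paralogs, and reads shared by near-identical copies were counted at 1 place, so single values are uncertain.

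PEGs and MADS-box genes were then compared directly with the other triploid mutants. All 3 mutants were fitted with the same 2 diploid libraries, so only the difference between mutants is read here. Since the minimum level was set on diploid and triploid peg2 seeds alone, genes high only in another mutant were not tested. This favours members above the other mutants. Of the 15 tested MADS-box genes, 0 were above and 5 below triploid adm-2 seeds, and 3 were above and 1 below triploid suvh7-1 seeds at an adjusted p under 0.05. The 3 genes above triploid suvh7-1 seeds were AGL36 (AT5G26650), by 3.0 on the log2 scale (adjusted p = 7.8e-04), AGL48 (AT2G40210), by 2.38 (adjusted p = 0.0019), and AGL62, by 1.36 (adjusted p = 0.0028). Over all tested genes, triploid peg2 seeds were above triploid adm-2 seeds in 8.67% and below in 25.2%, and above triploid suvh7-1 seeds in 7.43% and below in 9.79%. PEGs held more members above than below, with 4 of 12 above and 2 below triploid adm-2 seeds and 7 above and 1 below triploid suvh7-1 seeds. Without the gene mutated in the other cross, ADM or SUVH7, the counts were 3 of 11 above and 2 below triploid adm-2 seeds and 6 of 11 above and 1 below triploid suvh7-1 seeds. HDG10 differed by 0.78 (adjusted p = 0.029) against triploid adm-2 and 1.57 (adjusted p = 0.0027) against triploid suvh7-1 seeds on the log2 scale. PEG7 differed by 0.37 (adjusted p = 0.23) against triploid adm-2 and 1.71 (adjusted p = 0.0018) against triploid suvh7-1 seeds. PHE1 differed by -0.26 (adjusted p = 0.043) against triploid adm-2 and 0.1 (adjusted p = 0.47) against triploid suvh7-1 seeds. ADM was at 0.251 and 0.237 RPKM in triploid adm-2 and 0.758 and 0.706 RPKM in triploid suvh7-1 seeds, and SUVH7 at 3.19 and 3.17 RPKM in triploid adm-2 and 0.64 and 0.956 RPKM in triploid suvh7-1 seeds, so each was lowest in its own mutant.

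Polycomb group genes changed by small amounts. Of 9 tested genes 0 were higher and 1 lower, against 8.37% and 11.8% of all tested genes, and the median log2 fold change was -0.39. In the direct test 7 of the 9 were below triploid adm-2 seeds and 1 below triploid suvh7-1 seeds. Over all tested genes 25.2% were below triploid adm-2 and 9.79% below triploid suvh7-1 seeds. The lowered gene was CLF (AT2G23380), a histone methyltransferase subunit active in vegetative tissue, at 9.51 and 9.73 RPKM in diploid and 3.64 and 4.65 RPKM in triploid peg2 seeds (log2 fold change -1.21 ± 0.14 (SE), adjusted p = 8.7e-04). MEA (AT1G02580) and FIS2 (AT2G35670), the subunits of the endosperm complex, were at 0.839 and 1.36 RPKM in diploid and 2.41 and 1.82 RPKM in triploid peg2 seeds and at 0.965 and 0.913 RPKM in diploid and 1.86 and 1.79 RPKM in triploid peg2 seeds. Their log2 fold changes were 0.9 and 0.89, past the test but short of 2-fold. MSI1 (AT5G58230), the most abundant member, was at 56.2 and 57.1 RPKM in diploid and 48.4 and 51.1 RPKM in triploid peg2 seeds (log2 fold change -0.19 ± 0.07 (SE), adjusted p = 0.057). MEA passed 2-fold with a median-of-ratios size factor, at 1.01 (adjusted p = 0.023), and without replicate 2 of diploid seeds, at 1.22 (adjusted p = 0.014).

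Endosperm genes held raised and lowered members. Of 14 genes 9 reached the minimum level, 4 of them only through triploid peg2 seeds. Of these 9, 4 were higher and 4 lower, against 8.37% and 11.8% of all tested genes. Without the minimum level all 14 could be tested, and 8 were higher and 4 lower, since YUC11, IPT4, IPT8 and DD2 were called as well. Over all genes in that fit 9.03% were higher and 10.6% lower. The 4 higher genes that reached the minimum level were the 4 that did so only through triploid peg2 seeds. CKX2 (AT2G19500), which breaks down cytokinin, was at 0.585 and 0.405 RPKM in diploid and 60.7 and 55 RPKM in triploid peg2 seeds (log2 fold change 6.62 ± 0.17 (SE), adjusted p = 8.1e-06). TAR1 (AT1G23320), of the auxin synthesis pathway, was at 0.0242 and 0 RPKM in diploid and 9.21 and 7.54 RPKM in triploid peg2 seeds (log2 fold change 6.24 ± 0.25 (SE), adjusted p = 3.2e-05), and MINI3 (AT1G55600), a WRKY factor of the HAIKU pathway of seed size, at 0.029 and 0 RPKM in diploid and 3.14 and 2.4 RPKM in triploid peg2 seeds (log2 fold change 4.65 ± 0.33 (SE), adjusted p = 1.7e-04). The raised members were therefore near 0 in both diploid libraries. The lowered members were expressed in diploid seeds. SUC5 (AT1G71890), a sucrose transporter, was at 113 and 96.3 RPKM in diploid and 37.7 and 43.4 RPKM in triploid peg2 seeds (log2 fold change -1.36 ± 0.11 (SE), adjusted p = 2.6e-04). ZOU (AT1G49770), a regulator of endosperm breakdown, and ALE1 (AT1G62340), a protease needed for the embryo surface, had log2 fold changes of -1.29 and -1.54. CKX2 also stood above the other mutants, by 1.53 (adjusted p = 0.0024) against triploid adm-2 and 2.06 (adjusted p = 6.9e-04) against triploid suvh7-1 seeds.

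Genes for small secreted cysteine-rich proteins made up much of the top of the list of raised genes. Of 387 defensin-like and cysteine-rich peptide genes 157 reached the minimum level, 66 of them only through triploid peg2 seeds. Of these 157, 111 were higher and 11 lower, against 8.37% and 11.8% of all tested genes. Without the minimum level 270 could be tested, of which 134 were higher and 17 lower, against 9.03% and 10.6% of all genes in that fit. Their summed level was 3648 and 3738 RPKM in diploid seeds and 12612 and 11072 RPKM in triploid peg2 seeds. Of the 10 genes with the largest increase, AT5G15000, an ECA1-type peptide gene, was at 0.143 and 0 RPKM in diploid and 107 and 96.8 RPKM in triploid peg2 seeds (log2 fold change 9.35 ± 0.40 (SE), adjusted p = 3.8e-05). AT2G21465, a defensin-like gene, was at 2.91 and 0.884 RPKM in diploid and 799 and 680.2 RPKM in triploid peg2 seeds (log2 fold change 8.74 ± 0.49 (SE), adjusted p = 8.2e-05), AT5G42223, another defensin-like gene, at 0.222 and 0 RPKM in diploid and 87.3 and 64.6 RPKM in triploid peg2 seeds (log2 fold change 8.71 ± 0.53 (SE), adjusted p = 1.0e-04), and SCRL10 (AT4G15735), an SCR-like gene, at 0.811 and 1.13 RPKM in diploid and 428 and 312 RPKM in triploid peg2 seeds (log2 fold change 8.43 ± 0.20 (SE), adjusted p = 7.3e-06). Both triploid peg2 libraries exceeded both diploid libraries by far in all 4 genes. Many of these genes are short and have close relatives, so reads may have been shared between them. Of the 157 tested genes, 48 were above and 17 below triploid adm-2 seeds, and 76 were above and 13 below triploid suvh7-1 seeds. The minimum level was set on diploid and triploid peg2 seeds alone, which favours members above the other mutants. The shares over all tested genes were 8.67% above and 25.2% below triploid adm-2 and 7.43% above and 9.79% below triploid suvh7-1 seeds.

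Cell wall and uncharacterized genes filled the rest of that top group. EXPA21 (AT5G39260) encodes an expansin, a protein that loosens walls, and was at 1.94 and 1.32 RPKM in diploid and 693 and 659 RPKM in triploid peg2 seeds (log2 fold change 8.63 ± 0.17 (SE), adjusted p = 4.4e-06). AT5G46960, a gene for an inhibitor of invertases or pectin methylesterases, was at 2.54 and 1.74 RPKM in diploid and 844 and 834 RPKM in triploid peg2 seeds (log2 fold change 8.57 ± 0.17 (SE), adjusted p = 4.3e-06). AT1G10190 and AT4G15050, both annotated as NEP-interacting proteins, had log2 fold changes of 8.69 and 8.41. AT2G02498 and AT3G01325 have no annotated function and had log2 fold changes of 8.87 and 8.43. AT2G02498 was the most abundant of the 10, at 4.22 and 1.24 RPKM in diploid and 1202 and 1053 RPKM in triploid peg2 seeds.

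Genes of lipid-transfer proteins, small secreted carriers of lipids, moved both ways. Of 133 genes annotated as lipid-transfer or albumin-type proteins 48 reached the minimum level. Of these 48, 24 were higher and 12 lower, against 8.37% and 11.8% of all tested genes. LTP6 (AT3G08770) had the largest gain in RPKM of all called genes, at 2968 and 2938 RPKM in diploid and 9821 and 9002 RPKM in triploid peg2 seeds (log2 fold change 1.67 ± 0.21 (SE), adjusted p = 0.0013). LP1 (AT2G38540) was at 164 and 208 RPKM in diploid and 2373 and 1948 RPKM in triploid peg2 seeds (log2 fold change 3.54 ± 0.16 (SE), adjusted p = 4.6e-05), and LTP3 (AT5G59320) at 771 and 798 RPKM in diploid and 2824 and 2571 RPKM in triploid peg2 seeds (log2 fold change 1.78 ± 0.13 (SE), adjusted p = 1.8e-04). The largest loss in RPKM fell on neighbouring identifiers of the same family. AT5G38170 was at 6029 and 6083 RPKM in diploid and 261 and 329 RPKM in triploid peg2 seeds (log2 fold change -4.37 ± 0.16 (SE), adjusted p = 2.2e-05), and AT5G38160 at 3849 and 3835 RPKM in diploid and 199.6 and 225 RPKM in triploid peg2 seeds (log2 fold change -4.18 ± 0.12 (SE), adjusted p = 1.2e-05). By fold change the most altered members were AT2G14846, at 0.446 and 0.848 RPKM in diploid and 145 and 97 RPKM in triploid peg2 seeds (log2 fold change 7.36 ± 0.30 (SE), adjusted p = 3.5e-05), AT1G73560, at 1.81 and 1.33 RPKM in diploid and 105.4 and 113 RPKM in triploid peg2 seeds (log2 fold change 6.05 ± 0.15 (SE), adjusted p = 7.8e-06), and AT1G66850, at 5.48 and 6.82 RPKM in diploid and 0 and 0.0689 RPKM in triploid peg2 seeds (log2 fold change -5.58 ± 0.33 (SE), adjusted p = 9.6e-05). Close copies occur in this family, and single values are uncertain where reads were shared. The summed level of the list was 17464 and 17916 RPKM in diploid and 19184 and 18176 RPKM in triploid peg2 seeds, so gains and losses came close to cancelling. Further large gains in RPKM were those of DELTA-VPE (AT3G20210), a vacuolar protease of the seed coat, at 1802 and 2104 RPKM in diploid and 4553 and 3719 RPKM in triploid peg2 seeds (log2 fold change 1.08 ± 0.19 (SE), adjusted p = 0.0051), and of AT5G63087, a thionin gene, at 69.6 and 74.5 RPKM in diploid and 1916 and 1635 RPKM in triploid peg2 seeds (log2 fold change 4.62 ± 0.11 (SE), adjusted p = 7.3e-06). Both DELTA-VPE and LTP6 lost their call when either library of triploid peg2 seeds was left out. Without replicate 1 their log2 fold changes were 0.93 (adjusted p = 0.11) for DELTA-VPE and 1.61 (adjusted p = 0.071) for LTP6, and without replicate 2 they were 1.23 (adjusted p = 0.062) and 1.73 (adjusted p = 0.057). DELTA-VPE also lost it without replicate 1 of diploid seeds, at 0.97 (adjusted p = 0.0063).

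**Figure D3:**
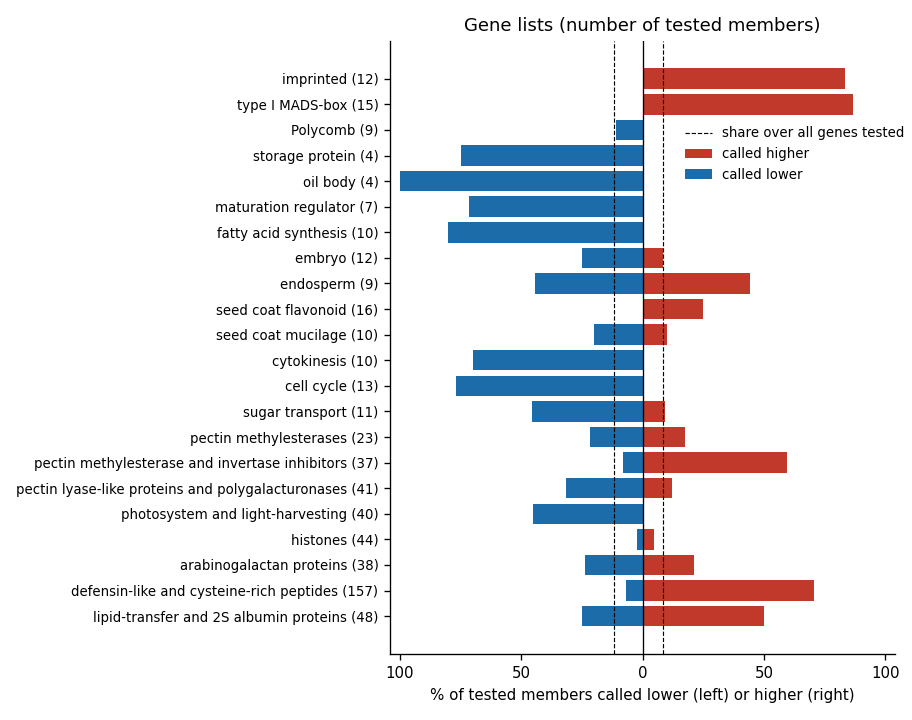
Share of the tested members of each gene list called lower (bars to the left) and higher (bars to the right) in triploid peg2 seeds, in percent, for lists of at least 4 tested members (their number in parentheses), with dashed lines at the shares over all genes tested, 8.37% higher and 11.8% lower. PEGs, MADS-box genes and cysteine-rich peptides extend to the right, and oil, storage, maturation, fatty acid, cytokinesis and cell cycle genes extend to the left.

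Genes of cytokinesis were among the lists with the largest shares of lowered members. In plants the phragmoplast, an array of microtubules, guides vesicles that fuse into the new wall, and the same machinery builds walls during endosperm cellularization. Of 10 tested genes 0 were higher and 7 lower, against 8.37% and 11.8% of all tested genes. The median log2 fold change was -2.13, and -0.11 over all tested genes. KN (AT1G08560), the syntaxin KNOLLE that fuses vesicles at the forming wall, was at 289 and 289 RPKM in diploid and 25 and 36.2 RPKM in triploid peg2 seeds (log2 fold change -3.26 ± 0.17 (SE), adjusted p = 6.9e-05). HIK (AT1G18370), the kinesin HINKEL, was at 29.3 and 29 RPKM in diploid and 3.79 and 4.55 RPKM in triploid peg2 seeds (log2 fold change -2.78 ± 0.11 (SE), adjusted p = 2.9e-05), and MAP65-3 (AT5G51600), which bundles phragmoplast microtubules, at 26.1 and 24.1 RPKM in diploid and 3.84 and 3.81 RPKM in triploid peg2 seeds (log2 fold change -2.68 ± 0.08 (SE), adjusted p = 1.7e-05). Replicates of diploid seeds differed by less than 3 RPKM in these genes, and the groups were far apart. KN differed by -1.79 (adjusted p = 3.8e-04) against triploid adm-2 and -2.45 (adjusted p = 1.4e-04) against triploid suvh7-1 seeds. KN was at 107 and 102 RPKM in triploid adm-2 and 161 and 169 RPKM in triploid suvh7-1 seeds, and so all 6 triploid libraries were below both diploid libraries.

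Genes of mitosis were lowered as well. Of 13 tested cyclin and cyclin-dependent kinase genes 0 were higher and 10 lower, against 8.37% and 11.8% of all tested genes. Their median log2 fold change was -1.48. CYCB2;1 (AT2G17620) was at 3.68 and 3.57 RPKM in diploid and 0.31 and 0.694 RPKM in triploid peg2 seeds (log2 fold change -2.71 ± 0.33 (SE), adjusted p = 0.0012), CYCB2;4 (AT1G76310) at 14.7 and 13.8 RPKM in diploid and 2.62 and 3.04 RPKM in triploid peg2 seeds (log2 fold change -2.29 ± 0.11 (SE), adjusted p = 5.4e-05) and CYCB2;2 (AT4G35620) at 6.81 and 6.76 RPKM in diploid and 1.67 and 1.23 RPKM in triploid peg2 seeds (log2 fold change -2.17 ± 0.17 (SE), adjusted p = 2.3e-04). CYCB1;2 (AT5G06150), a B-type cyclin and the most abundant member, was at 37.6 and 38.3 RPKM in diploid and 13.8 and 13.2 RPKM in triploid peg2 seeds (log2 fold change -1.48 ± 0.07 (SE), adjusted p = 4.7e-05). All 9 cyclins were lower, and of the 4 kinases 1 was. All 13 genes were below both triploid adm-2 and triploid suvh7-1 seeds at an adjusted p under 0.05, against 25.2% and 9.79% of all tested genes. CYCB1;2 differed by -0.78 (adjusted p = 3.5e-04) against triploid adm-2 and -0.95 (adjusted p = 1.4e-04) against triploid suvh7-1 seeds. Histone genes, most of which are transcribed with DNA replication, had lower levels at an adjusted p under 0.05 in 23 of 44 tested members. Over all tested genes that share was 35.0%. Histone genes were rarely called, with 2 of the 44 higher and 1 lower, against 8.37% and 11.8% of all tested genes. The raised genes were AT1G75600, at 0.186 and 0.462 RPKM in diploid and 47 and 47.1 RPKM in triploid peg2 seeds (log2 fold change 6.88 ± 0.31 (SE), adjusted p = 4.3e-05), and AT5G02570, with a log2 fold change of 1.48. The lowered one, LEC1 (AT1G21970), carries a histone fold and is a regulator of maturation, not a histone. LEC1 was at 127 and 132 RPKM in diploid and 46.5 and 64.6 RPKM in triploid peg2 seeds (log2 fold change -1.24 ± 0.16 (SE), adjusted p = 0.0013), and just short of 2-fold, at -1.0 (adjusted p = 0.0041), without replicate 1 of triploid peg2 seeds. HTB4 (AT5G59910), an H2B gene and the most abundant histone member, was at 707 and 689.6 RPKM in diploid and 538 and 574 RPKM in triploid peg2 seeds (log2 fold change -0.33 ± 0.10 (SE), adjusted p = 0.031).

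The promoters of these genes were searched for AACGG, the core of the MSA element bound by MYB factors of mitotic genes. The search covered both strands of the 250 bases before the gene start in the TAIR10.1 assembly and its RefSeq annotation. AACGG was in 22.0% of 18224 promoters of tested genes, in 14.1% of those of raised and in 24.0% of those of lowered genes. It was in 7 of 10 cytokinesis and 7 of 13 cell cycle promoters, and in 23 of 44 histone promoters, a list with only 3 called genes. The motif was chosen after these values were seen, and a match is a description of letters only. The promoters of KN and CYCB1;2 are shown since these genes carried the highest levels of their lists, with AACGG or its reverse complement CCGTT in capitals.
KN (AT1G08560, chr1:2711001-2711250, minus strand): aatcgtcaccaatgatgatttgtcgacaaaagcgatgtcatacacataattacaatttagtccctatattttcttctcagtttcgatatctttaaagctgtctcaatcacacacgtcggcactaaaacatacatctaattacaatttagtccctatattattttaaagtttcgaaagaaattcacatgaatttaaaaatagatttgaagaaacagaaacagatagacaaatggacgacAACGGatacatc
CYCB1;2 (AT5G06150, chr5:1861704-1861953, minus strand): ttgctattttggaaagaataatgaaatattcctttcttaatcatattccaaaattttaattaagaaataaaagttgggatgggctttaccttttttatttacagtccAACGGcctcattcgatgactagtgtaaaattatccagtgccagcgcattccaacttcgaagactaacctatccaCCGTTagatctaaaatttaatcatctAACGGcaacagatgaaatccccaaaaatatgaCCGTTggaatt

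Oil and maturation genes were lowered together. Of 7 tested maturation regulators 0 were higher and 5 lower, against 8.37% and 11.8% of all tested genes. Their median log2 fold change was -2.43. L1L (AT5G47670), the LEC1-like subunit of the NF-Y complex, was at 132 and 93.8 RPKM in diploid and 3.0 and 5.68 RPKM in triploid peg2 seeds (log2 fold change -4.72 ± 0.31 (SE), adjusted p = 1.4e-04). FUS3 (AT3G26790) and ABI3 (AT3G24650), both B3 factors, were at 32.7 and 28.3 RPKM in diploid and 2.57 and 4.05 RPKM in triploid peg2 seeds (log2 fold change -3.2 ± 0.21 (SE), adjusted p = 1.4e-04) and at 64.8 and 55.5 RPKM in diploid and 8.9 and 11.5 RPKM in triploid peg2 seeds (log2 fold change -2.55 ± 0.14 (SE), adjusted p = 8.4e-05). WRI1 (AT3G54320), the AP2 factor that turns on fatty acid synthesis, was at 192 and 178 RPKM in diploid and 30.2 and 38.9 RPKM in triploid peg2 seeds (log2 fold change -2.43 ± 0.13 (SE), adjusted p = 7.2e-05). In each of the 4 genes triploid peg2 replicate 1 was the lowest library. All 7 members had an adjusted p under 0.05 with lower levels in triploid peg2 seeds, LEC2 (AT1G28300) and ABI5 (AT2G36270) short of 2-fold. Of the 7 genes, 6 were below triploid adm-2 and 6 below triploid suvh7-1 seeds in the direct test, against 25.2% and 9.79% of all tested genes. WRI1 differed by -1.14 (adjusted p = 6.6e-04) against triploid adm-2 and -1.2 (adjusted p = 4.7e-04) against triploid suvh7-1 seeds.

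Fatty acid synthesis genes moved with these regulators. Of 10 tested genes 0 were higher and 8 lower, against 8.37% and 11.8% of all tested genes. Their median log2 fold change was -2.07. FAE1 (AT4G34520), which extends fatty acids to very long chains, was among the 10 most lowered genes of the transcriptome, at 84.6 and 58 RPKM in diploid and 0.425 and 1.11 RPKM in triploid peg2 seeds (log2 fold change -6.46 ± 0.40 (SE), adjusted p = 1.2e-04). BCCP2 (AT5G15530), a subunit of acetyl-CoA carboxylase, was at 209.7 and 177 RPKM in diploid and 19.7 and 26.6 RPKM in triploid peg2 seeds (log2 fold change -3.07 ± 0.16 (SE), adjusted p = 7.0e-05), and PKP-BETA1 (AT5G52920), which supplies pyruvate to the plastid, at 335 and 294 RPKM in diploid and 66.4 and 71.2 RPKM in triploid peg2 seeds (log2 fold change -2.19 ± 0.09 (SE), adjusted p = 3.8e-05). FAD2 (AT3G12120), a desaturase expressed throughout the plant, was at 665 and 616 RPKM in diploid and 540.1 and 632 RPKM in triploid peg2 seeds (log2 fold change -0.13 ± 0.12 (SE), adjusted p = 0.38), and the groups overlapped. The 10 genes stood at a median of 22.2% and 24.99% of the diploid mean in the triploid peg2 libraries. The same medians were 36.6% and 36.0% in triploid adm-2 and 35.6% and 37.3% in triploid suvh7-1 seeds.

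**Figure D4:**
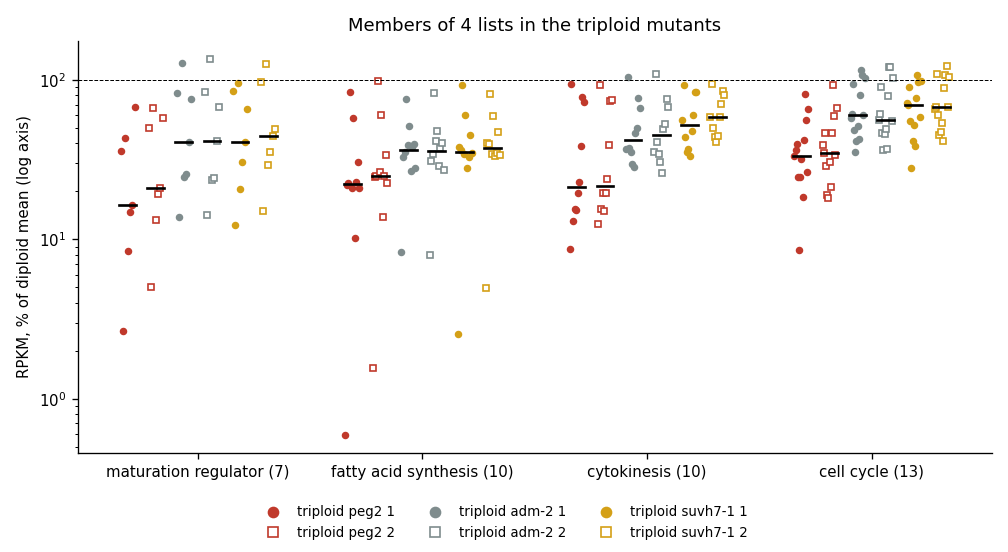
RPKM of each tested member of 4 lists as percent of its diploid mean (log axis) in each library of triploid peg2, triploid adm-2 and triploid suvh7-1 seeds, with black bars at the median and the dashed line at 100%. Cell cycle medians are 33.3% and 34.9% in triploid peg2 seeds and 56.2% to 69.8% in the other 4 libraries, and the cytokinesis medians are 21.2% and 21.7% against 41.9% to 58.6%.

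Oil body proteins coat the droplets in which seeds store oil. All 4 tested genes, of 6, were lower, against 11.8% of all tested genes, with a median log2 fold change of -3.02. OLEO3 (AT5G51210), the most abundant, was at 529.8 and 328 RPKM in diploid and 28.5 and 50.2 RPKM in triploid peg2 seeds (log2 fold change -3.46 ± 0.33 (SE), adjusted p = 4.5e-04), and OLEO1 (AT4G25140) at 175 and 75.8 RPKM in diploid and 9.39 and 15.2 RPKM in triploid peg2 seeds (log2 fold change -3.26 ± 0.42 (SE), adjusted p = 0.0015). OLEO2 (AT5G40420) was at 198 and 115 RPKM in diploid and 17.8 and 26.6 RPKM in triploid peg2 seeds (log2 fold change -2.79 ± 0.30 (SE), adjusted p = 7.0e-04). Replicate 1 of diploid seeds was well above replicate 2 in the 3 genes, and replicate 1 of triploid peg2 seeds was below replicate 2, yet the groups stayed apart. OLEO3 was at 71.4 and 79.1 RPKM in triploid adm-2 and 72.3 and 96.2 RPKM in triploid suvh7-1 seeds, between the diploid and the triploid peg2 levels. OLEO3 differed by -0.99 (adjusted p = 0.035) against triploid adm-2 and -1.14 (adjusted p = 0.035) against triploid suvh7-1 seeds.

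Storage protein genes were low at this stage in diploid seeds. Of 9 genes 4 reached the minimum level, and 3 were lower and 0 higher, against 11.8% and 8.37% of all tested genes. SESA3 (AT4G27160), an albumin gene, was at 20.9 and 7.87 RPKM in diploid and 0.729 and 2.03 RPKM in triploid peg2 seeds (log2 fold change -3.28 ± 0.59 (SE), adjusted p = 0.0054). SESA1 (AT4G27140) was at 9.97 and 7.86 RPKM in diploid and 0.948 and 1.29 RPKM in triploid peg2 seeds (log2 fold change -2.89 ± 0.20 (SE), adjusted p = 1.5e-04), and CRA1 (AT5G44120), a cruciferin gene, at 7.59 and 7.9 RPKM in diploid and 0.837 and 2.24 RPKM in triploid peg2 seeds (log2 fold change -2.41 ± 0.41 (SE), adjusted p = 0.0044). SESA4 (AT4G27170) was at 2.63 and 1.63 RPKM in diploid and 1.19 and 1.29 RPKM in triploid peg2 seeds (log2 fold change -0.7 ± 0.25 (SE), adjusted p = 0.06). The other mutants stood elsewhere for most of these genes. SESA3 was at 45.4 and 44.2 RPKM in triploid adm-2 and 35.9 and 63.9 RPKM in triploid suvh7-1 seeds, above both diploid libraries in all 4 cases, and CRA1 was at 15 and 16.8 RPKM in triploid adm-2 and 14.9 and 24.4 RPKM in triploid suvh7-1 seeds. SESA4 was at 13.5 and 12.4 RPKM in triploid adm-2 and 11.3 and 17.1 RPKM in triploid suvh7-1 seeds, likewise above both diploid libraries, whereas SESA1 was at 5.27 and 3.7 RPKM in triploid adm-2 and 5.01 and 8.09 RPKM in triploid suvh7-1 seeds. SESA3 differed by -5.08 (adjusted p = 8.5e-04) against triploid adm-2 and -5.17 (adjusted p = 6.8e-04) against triploid suvh7-1 seeds. CRA1 differed by -3.43 (adjusted p = 0.0011) against triploid adm-2 and -3.7 (adjusted p = 7.0e-04) against triploid suvh7-1 seeds. All 4 tested storage genes were below both other mutants at an adjusted p under 0.05, against 25.2% and 9.79% of all tested genes.

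**Figure D5:**
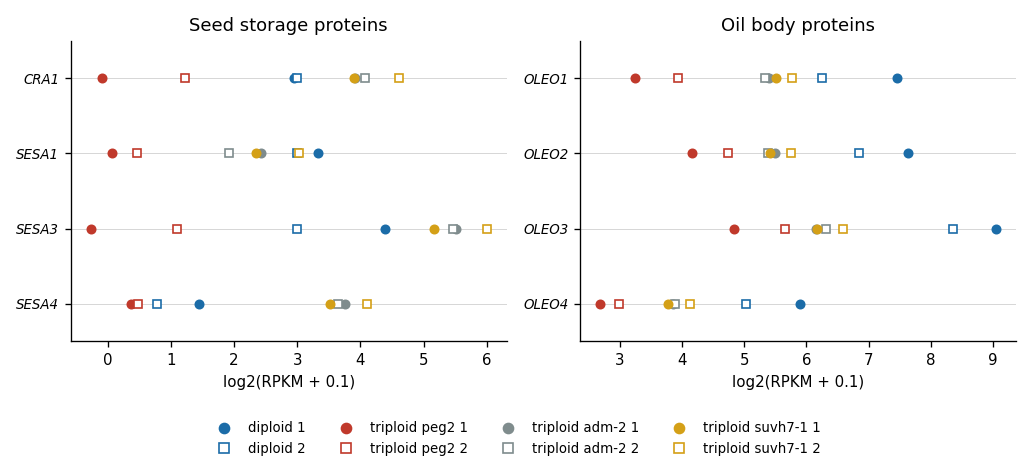
Level of the tested storage protein genes (left) and oil body genes (right) in 8 libraries as log2(RPKM + 0.1) (x axis), coloured by group, replicate 1 filled and replicate 2 open. For oil body genes the other triploid mutants lie between triploid peg2 (left) and diploid seeds (right), while for CRA1, SESA3 and SESA4 they lie to the right of diploid seeds.

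The promoters of the maturation genes were searched in the same way for CATGCA, the RY repeat bound by B3 factors such as ABI3 and FUS3. CATGCA was in 7.26% of all 18224 promoters, in 7.48% of those of raised and in 12% of those of lowered genes. It was in 28 of the 100 most lowered genes and in 7 of the 100 most raised. All 4 tested oil body and all 4 tested storage genes held it, as did 1 of 10 fatty acid synthesis genes and 1 of 7 maturation regulators. This motif was also chosen after the values were seen, and its reverse complement TGCATG overlaps it in runs such as CATGCATG. OLEO1, OLEO3 and FAE1 are shown as strongly lowered oil genes and SESA3 as a storage gene whose direction differed between mutants, as that of CRA1 did, with CATGCA and TGCATG in capitals.
OLEO1 (AT4G25140, chr4:12900180-12900429, plus strand): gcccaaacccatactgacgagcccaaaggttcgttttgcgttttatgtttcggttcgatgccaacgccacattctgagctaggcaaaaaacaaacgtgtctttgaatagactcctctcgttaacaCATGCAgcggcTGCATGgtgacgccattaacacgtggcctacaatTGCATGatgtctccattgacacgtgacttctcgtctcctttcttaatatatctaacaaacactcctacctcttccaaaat
OLEO3 (AT5G51210, chr5:20819818-20820067, plus strand): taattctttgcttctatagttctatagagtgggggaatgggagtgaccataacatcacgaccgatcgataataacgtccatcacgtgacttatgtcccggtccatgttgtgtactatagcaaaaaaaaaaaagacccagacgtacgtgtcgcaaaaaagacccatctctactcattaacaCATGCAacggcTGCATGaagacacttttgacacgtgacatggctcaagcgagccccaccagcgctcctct
FAE1 (AT4G34520, chr4:16493955-16494204, plus strand): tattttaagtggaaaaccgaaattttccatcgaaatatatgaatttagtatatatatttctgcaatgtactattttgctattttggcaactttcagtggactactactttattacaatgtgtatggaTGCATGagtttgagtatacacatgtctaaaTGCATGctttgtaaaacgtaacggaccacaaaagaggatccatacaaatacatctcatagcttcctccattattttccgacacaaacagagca
SESA3 (AT4G27160, chr4:13611546-13611795, plus strand): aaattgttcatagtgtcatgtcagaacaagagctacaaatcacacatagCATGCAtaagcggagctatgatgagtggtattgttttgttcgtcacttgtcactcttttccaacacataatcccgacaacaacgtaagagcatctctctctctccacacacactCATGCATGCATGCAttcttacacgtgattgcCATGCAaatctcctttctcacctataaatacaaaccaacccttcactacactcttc

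The CArG box is the site bound by MADS-box factors. This motif, CC and GG around a run of 6 A or T bases, was in 2.76% of all promoters, in 2.89% of those of raised genes and in 2 of 15 promoters of tested MADS-box genes.

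Several of the 10 most lowered genes encode enzymes. AT1G50650, a STIG1-family gene, was at 109 and 119 RPKM in diploid and 0.317 and 1.82 RPKM in triploid peg2 seeds (log2 fold change -7.0 ± 0.66 (SE), adjusted p = 4.6e-04). AT1G28700, a sugar transferase gene, was at 63.3 and 72.5 RPKM in diploid and 0.122 and 1.39 RPKM in triploid peg2 seeds (log2 fold change -6.88 ± 0.83 (SE), adjusted p = 0.0011), and AT5G25330 and AT1G10880, both annotated as core-2/I-branching enzymes, had log2 fold changes of -6.75 and -6.53. GLIP6 (AT1G71120), a GDSL lipase gene, CYP76G1 (AT3G52970), a cytochrome P450 gene, and AT3G61930, of no annotated function, had log2 fold changes of -6.49, -6.34 and -6.44. Replicate 1 of triploid peg2 seeds was below replicate 2 in each of these genes, while the diploid libraries were close together. The same held for 80.2% of all lowered genes, against 46.9% of genes that were not called, and replicate 1 of diploid seeds was above replicate 2 in 71.6% of the lowered genes. The median log2 difference between the triploid peg2 replicates was -0.20 over the lowered genes and 0.01 over genes that were not called. These replicates lay further apart in AT1G50650, at 0.317 and 1.82 RPKM, and in AT1G28700, at 0.122 and 1.39 RPKM.

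The genes that were lowered most in triploid peg2 seeds were also low, but less so, in the other mutants. For 20 genes with at least 20 RPKM in both diploid libraries and a log2 fold change below -5.5, the triploid peg2 libraries kept a median of 0.558% and 2.14% of the diploid mean. The same genes stood at 10.8% and 10.7% in triploid adm-2 and at 10.06% and 11.3% in triploid suvh7-1 seeds. These genes were picked for their level in triploid peg2 seeds, so their medians are a description.

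A pair of lowered genes behaved differently and was singled out after the values were seen. SADHU1-1 (AT2G10410), a Sadhu retroelement, was at 19.8 and 24.3 RPKM in diploid and 0.0288 and 0.125 RPKM in triploid peg2 seeds (log2 fold change -7.01 ± 0.30 (SE), adjusted p = 3.8e-05), and at 14.6 and 13.1 RPKM in triploid adm-2 and 11.1 and 12.4 RPKM in triploid suvh7-1 seeds. AT2G11240, of no annotated function, was at 3.29 and 2.41 RPKM in diploid and 0.00499 and 0.00814 RPKM in triploid peg2 seeds, and at 5.16 and 5.79 RPKM in triploid adm-2 and 1.36 and 2.43 RPKM in triploid suvh7-1 seeds. These were the only 2 tested genes with both triploid peg2 libraries under 5% of each of the other 6 libraries, and 0 genes were over 20-fold above them. Both lie on chromosome 2, starting at positions 4005995 and 4477686, and whether they changed independently was not tested. GLP6 (AT5G39100), a germin-like gene with the largest drop of all, was at 47.3 and 94.5 RPKM in diploid and 0 and 0.335 RPKM in triploid peg2 seeds (log2 fold change -8.33 ± 0.71 (SE), adjusted p = 3.1e-04). Its value is unstable between pools, as it was at 62.7 and 4.4 RPKM in triploid adm-2 and 0.197 and 56.9 RPKM in triploid suvh7-1 seeds, so that libraries of 1 cross covered nearly the whole range seen between groups.

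The other losses of the largest size in RPKM were those of CAB1 (AT1G29930), LCR69 (AT2G02100) and AT1G12080. CAB1, a chlorophyll-binding protein of photosystem II, was at 3076 and 2535 RPKM in diploid and 826 and 1086 RPKM in triploid peg2 seeds (log2 fold change -1.56 ± 0.19 (SE), adjusted p = 0.0012). LCR69, a cysteine-rich peptide gene lowered against the trend of its family, was at 1884 and 1803 RPKM in diploid and 107 and 209.5 RPKM in triploid peg2 seeds (log2 fold change -3.62 ± 0.30 (SE), adjusted p = 2.9e-04), and AT1G12080, annotated as a vacuolar calcium-binding protein, at 1551 and 1771 RPKM in diploid and 41.2 and 75.2 RPKM in triploid peg2 seeds (log2 fold change -4.89 ± 0.28 (SE), adjusted p = 8.3e-05). Nuclear photosystem and light-harvesting genes followed CAB1, with 0 of 40 tested genes higher and 18 lower, against 8.37% and 11.8% of all tested genes. Their median log2 fold change was -0.92. LHCB2.3 (AT3G27690) was at 31.8 and 22.1 RPKM in diploid and 1.87 and 3.04 RPKM in triploid peg2 seeds (log2 fold change -3.42 ± 0.27 (SE), adjusted p = 2.3e-04), PSBO2 (AT3G50820) at 162 and 116 RPKM in diploid and 34.5 and 40.3 RPKM in triploid peg2 seeds (log2 fold change -1.87 ± 0.17 (SE), adjusted p = 3.9e-04) and LHCB2.2 (AT2G05070) at 246 and 210.1 RPKM in diploid and 61.7 and 72.4 RPKM in triploid peg2 seeds (log2 fold change -1.76 ± 0.12 (SE), adjusted p = 1.4e-04). LHCB6 (AT1G15820), the most abundant member, was at 580.2 and 459 RPKM in diploid and 203 and 237 RPKM in triploid peg2 seeds (log2 fold change -1.23 ± 0.14 (SE), adjusted p = 0.001). Light-harvesting genes are close paralogs, and reads shared among them make single values uncertain. In the direct tests 6 of the 40 were below triploid adm-2 seeds and 1 below triploid suvh7-1 seeds, against 25.2% and 9.79% of all tested genes.

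Genes of sugar supply were lowered in part. Of 11 tested genes 1 was higher and 5 lower, against 8.37% and 11.8% of all tested genes. SWEET11 (AT3G48740), a sucrose exporter of the seed coat, was at 38.4 and 34.9 RPKM in diploid and 1.88 and 5.18 RPKM in triploid peg2 seeds (log2 fold change -3.5 ± 0.43 (SE), adjusted p = 0.0012). CWINV1 (AT3G13790), a cell wall invertase, was at 9.84 and 6.66 RPKM in diploid and 0.886 and 0.887 RPKM in triploid peg2 seeds (log2 fold change -3.05 ± 0.21 (SE), adjusted p = 1.5e-04), and SUS2 (AT5G49190), a sucrose synthase, at 13.5 and 7.86 RPKM in diploid and 1.37 and 1.55 RPKM in triploid peg2 seeds (log2 fold change -2.74 ± 0.26 (SE), adjusted p = 4.5e-04). SWEET10 (AT5G50790), the most abundant member, was at 165 and 166 RPKM in diploid and 244 and 247 RPKM in triploid peg2 seeds, with a log2 fold change of 0.57 that passed the test but not 2-fold. The raised member was CWINV4 (AT2G36190), another invertase gene, at 6.91 and 6.8 RPKM in diploid and 18.4 and 23.8 RPKM in triploid peg2 seeds (log2 fold change 1.6 ± 0.13 (SE), adjusted p = 2.9e-04).

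Pectin genes changed in both directions. Pectin methylesterases strip methyl groups from pectin, their inhibitors block them, and polygalacturonases and lyases cut the backbone. Of the inhibitors of methylesterases or invertases, 22 of 37 tested genes were higher and 3 lower, against 8.37% and 11.8% of all tested genes. Of the 37, 12 were tested only through triploid peg2 seeds. Without the minimum level 27 of 66 were higher and 4 lower, against 9.03% and 10.6% of all genes in that fit. Their summed level was 2367 and 2567 RPKM in diploid and 7732 and 7381 RPKM in triploid peg2 seeds. AT4G15750, the most abundant, was at 1102 and 1205 RPKM in diploid and 2944 and 2733 RPKM in triploid peg2 seeds (log2 fold change 1.3 ± 0.14 (SE), adjusted p = 7.7e-04). AT5G46950 and AT1G56620 had log2 fold changes of 7.8 and 7.52.

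Genes listed as methylesterases were mixed, with 4 of 23 tested genes higher and 5 lower, against 8.37% and 11.8% of all tested genes. AT4G02300 was at 0 and 0.0192 RPKM in diploid and 5.31 and 4.88 RPKM in triploid peg2 seeds (log2 fold change 5.57 ± 0.26 (SE), adjusted p = 5.0e-05), PME3 (AT3G14310) at 10.5 and 13.1 RPKM in diploid and 0.873 and 1.34 RPKM in triploid peg2 seeds (log2 fold change -3.32 ± 0.22 (SE), adjusted p = 1.4e-04) and AT1G02810 at 3.95 and 3.98 RPKM in diploid and 0.429 and 0.863 RPKM in triploid peg2 seeds (log2 fold change -2.51 ± 0.30 (SE), adjusted p = 0.0011). AT5G49180, the most abundant, was at 820.2 and 999 RPKM in diploid and 1636 and 1631 RPKM in triploid peg2 seeds, short of 2-fold with a log2 fold change of 0.85. Of 41 tested polygalacturonase and pectin lyase-like genes, 5 were higher and 13 lower, against the same shares of all tested genes, 8.37% and 11.8%. This list was drawn by the words of the annotated product. It also holds methylesterase genes such as PPME1 (AT1G69940), so its counts do not describe backbone-cutting enzymes alone. AT4G32370 was at 0.0824 and 0.119 RPKM in diploid and 46.6 and 53.5 RPKM in triploid peg2 seeds (log2 fold change 7.97 ± 0.15 (SE), adjusted p = 4.1e-06) and AT3G48950 at 2.06 and 2.21 RPKM in diploid and 55.9 and 63.5 RPKM in triploid peg2 seeds (log2 fold change 4.74 ± 0.10 (SE), adjusted p = 4.9e-06), while AT3G59850 was at 6.69 and 7.72 RPKM in diploid and 0.0654 and 0.0947 RPKM in triploid peg2 seeds (log2 fold change -5.34 ± 0.22 (SE), adjusted p = 3.3e-05). PG2 (AT1G70370), the most abundant, was at 52.7 and 57.6 RPKM in diploid and 73.7 and 71.2 RPKM in triploid peg2 seeds, with a log2 fold change of 0.39. Without the minimum level 12 of 90 genes were higher and 16 lower, against 9.03% and 10.6% of all genes in that fit. The 6 genes with pectate lyase in the words of their annotated product stayed under the minimum level, with a summed level of 1.7 to 2.9 RPKM over the 4 libraries. Other pectate lyases may be among the pectin lyase-like genes, so these 6 do not stand for the whole family.

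Arabinogalactan proteins, glycoproteins of the cell surface, were also mixed, with 8 of 38 tested genes higher and 9 lower. The shares over all tested genes were 8.37% and 11.8%. AGP24 (AT5G40730) was at 17.9 and 26.3 RPKM in diploid and 312 and 312 RPKM in triploid peg2 seeds (log2 fold change 3.84 ± 0.18 (SE), adjusted p = 4.7e-05), FLA2 (AT4G12730) at 5.75 and 6.73 RPKM in diploid and 0.456 and 0.649 RPKM in triploid peg2 seeds (log2 fold change -3.29 ± 0.20 (SE), adjusted p = 1.1e-04) and FLA13 (AT5G44130) at 0.356 and 0.185 RPKM in diploid and 3.38 and 3.09 RPKM in triploid peg2 seeds (log2 fold change 3.21 ± 0.29 (SE), adjusted p = 3.7e-04). AGP15 (AT5G11740), the most abundant, was at 1351 and 1244 RPKM in diploid and 2403 and 2028 RPKM in triploid peg2 seeds, with a log2 fold change of 0.77 short of 2-fold.

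Markers of the seed coat were present in all libraries. The maternal coat was wild type, and of its 16 flavonoid genes 4 were higher, 0 lower, against 8.37% and 11.8% of all tested genes. Their median log2 fold change was 0.70. At any fold change 13 of the 16 had higher levels at an adjusted p under 0.05 and 1 had a lower level, against 22.9% and 35.0% of all tested genes. TT5 (AT3G55120), TT12 (AT3G59030) and TT7 (AT5G07990), an isomerase, a transporter and a hydroxylase of the pathway, were at 88.9 and 96.4 RPKM in diploid and 235 and 215 RPKM in triploid peg2 seeds (log2 fold change 1.28 ± 0.08 (SE), adjusted p = 1.4e-04), at 6.0 and 7.75 RPKM in diploid and 18.1 and 15.1 RPKM in triploid peg2 seeds (log2 fold change 1.26 ± 0.15 (SE), adjusted p = 0.0011) and at 263 and 265 RPKM in diploid and 646 and 612 RPKM in triploid peg2 seeds (log2 fold change 1.25 ± 0.09 (SE), adjusted p = 1.5e-04). TT4 (AT5G13930), chalcone synthase, was at 678 and 779.95 RPKM in diploid and 1427 and 1404 RPKM in triploid peg2 seeds, with a log2 fold change of 0.96 short of 2-fold, and passed 2-fold with a size factor at 1.07 (adjusted p = 7.1e-04). The summed level of the 16 genes was 3309 and 3428 RPKM in diploid and 5378 and 5100 RPKM in triploid peg2 seeds, and the part of the coat's share of RNA in this difference was not tested. Of 10 mucilage genes of the coat 1 was higher and 2 lower, against 8.37% and 11.8% of all tested genes. PER36 (AT3G50990), a peroxidase of mucilage release, was at 148 and 200.04 RPKM in diploid and 386 and 424 RPKM in triploid peg2 seeds (log2 fold change 1.23 ± 0.16 (SE), adjusted p = 0.0013), GATL5 (AT1G02720), a galacturonosyltransferase-like gene, at 261 and 184 RPKM in diploid and 34.5 and 58.2 RPKM in triploid peg2 seeds (log2 fold change -2.29 ± 0.28 (SE), adjusted p = 0.0012) and MUM2 (AT5G63800), a galactosidase, at 86.2 and 93.3 RPKM in diploid and 40.4 and 45.9 RPKM in triploid peg2 seeds (log2 fold change -1.06 ± 0.09 (SE), adjusted p = 3.1e-04). With a size factor MUM2 fell short of 2-fold, at -0.95 (adjusted p = 5.0e-04), as it did without replicate 1 of triploid peg2 seeds, at -0.96 (adjusted p = 0.0051). SBT1.7 (AT5G67360), the most abundant, was at 671 and 729.7 RPKM in diploid and 832 and 909.9 RPKM in triploid peg2 seeds (log2 fold change 0.31 ± 0.11 (SE), adjusted p = 0.056).

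Markers of the embryo were present in all libraries. Of 12 tested genes 1 was higher and 3 lower, against 8.37% and 11.8% of all tested genes, and the median log2 fold change was -0.62. WOX8 (AT5G45980), a factor of the early basal lineage, was at 7.02 and 8.31 RPKM in diploid and 2.97 and 3.47 RPKM in triploid peg2 seeds (log2 fold change -1.23 ± 0.14 (SE), adjusted p = 8.4e-04). DRNL (AT1G24590) was at 0.399 and 0.766 RPKM in diploid and 1.33 and 1.59 RPKM in triploid peg2 seeds (log2 fold change 1.24 ± 0.33 (SE), adjusted p = 0.021) and lost its call when any library other than replicate 2 of diploid seeds was left out. ATML1 (AT4G21750), an epidermal factor and the most abundant member, was at 50.4 and 54.7 RPKM in diploid and 74.8 and 72.9 RPKM in triploid peg2 seeds, with a log2 fold change of 0.49.

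Pollen markers were near 0 in both groups. Of 16 genes, 2 reached the minimum level, and the summed level of all 16 was 5.51 and 8.44 RPKM in diploid and 3.63 and 3.14 RPKM in triploid peg2 seeds. RALF4 (AT1G28270), a peptide of the pollen tube wall, was at 2.39 and 3.28 RPKM in diploid and 0.0363 and 0.158 RPKM in triploid peg2 seeds (log2 fold change -3.95 ± 0.39 (SE), adjusted p = 5.5e-04), and ANX1 (AT3G04690), a receptor kinase of the pollen tube, at 2.12 and 1.72 RPKM in diploid and 1.01 and 1.45 RPKM in triploid peg2 seeds (log2 fold change -0.62 ± 0.23 (SE), adjusted p = 0.067).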

How the data were processed

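RNA of whole seeds was made into libraries with a TruSeq RNA kit and sequenced as 100-base read pairs. The authors mapped reads with TopHat2 2.0.10 to TAIR10, allowed each read a single alignment and deposited the levels as RPKM for each gene. The tool that computed the RPKM is not given in the sources used here. Genes of nearly identical sequence may therefore share reads. All 279 organelle genes were listed at 0.

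Of the 33602 genes, 32835 matched the TAIR10.1 annotation of RefSeq, used for names and promoters. Genes with a mean of at least 1 RPKM over the 4 libraries were fitted on log2(RPKM + 0.1) with limma 3.58.1 in R 4.3.3 (eBayes with trend), Benjamini-Hochberg adjusted, and called at an adjusted p under 0.05 and over 2-fold. The rank product was rewritten in Python 3.11.15 with 100 permutations and called at a proportion of false positives (pfp) under 0.05. Direct contrasts between mutants came from an 8-library fit of the same genes, which were chosen by their level in diploid and triploid peg2 seeds. Scripts were tested on simulated data. An exact permutation test of 2 against 2 libraries cannot give a two-sided p under 0.333 and was not used.

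Named genes were OSD1 and PEG2, 16 PEGs, the 10 called genes of largest fold change and the 5 of largest RPKM difference in each direction, and for each of 24 lists the 3 tested members of largest change and the most abundant; 1 gene that this rule names is not reported here. Other list members named, the pair SADHU1-1 and AT2G11240 and the motifs were chosen after their values were seen. Members and lists were chosen with earlier results of these data known. Alternatives were another pseudocount, filter, scaling, threshold, an 8-library fit, a replicate block and leaving out each library.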

Additional observations from a re-analysis of the deposited data

Results flagged for a closer look

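SESA3, which encodes a seed storage albumin, moved in opposite directions in the triploid mutants relative to the same diploid libraries. Both libraries of triploid peg2 seeds, at 0.729 and 2.03 RPKM, were below both diploid libraries, at 20.9 and 7.87 RPKM, and all 4 libraries of triploid adm-2 and triploid suvh7-1 seeds were above them. The difference between triploid peg2 and triploid adm-2 seeds was -5.08 on the log2 scale and that between triploid peg2 and triploid suvh7-1 seeds was -5.17, with adjusted p values of 0.00085 and 0.00068 by limma. The diploid libraries themselves differed by over 2-fold.

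CRA1, a cruciferin gene, was likewise below both diploid libraries in triploid peg2 seeds and above them in all 4 libraries of the other mutants. Triploid peg2 seeds differed by -3.43 from triploid adm-2 and by -3.70 from triploid suvh7-1 seeds, with adjusted p values of 0.0011 and 7.0e-04. Against diploid seeds CRA1 had an adjusted p of 0.0501 in triploid adm-2 and 0.023 in triploid suvh7-1 seeds. FXG1, an alpha-fucosidase gene, showed the opposite order, above both diploid libraries in triploid peg2 seeds and below them in the other mutants, with differences of 0.98 and 1.01 and adjusted p values of 0.0015 and 0.0013. SBT1.7, a protease gene of the seed coat, had the same order against triploid adm-2 seeds, with a difference of 0.55 and an adjusted p of 0.0056. Against diploid seeds SBT1.7 was not called, with adjusted p values of 0.056 in triploid peg2 and 0.069 in triploid adm-2 seeds. Triploid suvh7-1 seeds stood at the triploid peg2 level for SBT1.7, with a difference of 0.0031 and an adjusted p of 0.99. All differences are limma contrasts on the log2 scale, and the order of each mutant is read against the same 2 diploid libraries.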

How the results depend on the processing

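By limma the number of higher genes was 2411 without a minimum level and 842 at a minimum mean of 5 RPKM, where 1384 genes were lower, since these settings change how many genes are tested. The other limma settings stayed within 1.5 times the main counts, from 1304 higher and 1778 lower with a pseudocount of 1 to 1717 and 1910 with a size factor. Leaving out 1 library gave 1459 to 1612 higher and 2072 to 2275 lower genes; in these fits the lone library of a group is assumed to vary like the other group. The rank product was far less stable. It gave 38 higher and 23 lower genes at a pfp under 0.01 and 137 lower genes without a minimum level, and leaving out 1 library gave 0 to 8 higher and 0 to 11 lower genes. Replicate numbers mark separate seed pools, with a correlation of -0.201 between the deviations of same-numbered libraries, so they were not taken as pairs. A replicate block gave 1543 higher and 2163 lower genes by limma and 105 and 86 by rank product, and a block with crossed numbers, added after seeing the data, 1541 and 2182 by limma and 112 and 89 by rank product. Of 103 called named genes, 5 lost their call in at least 1 of 14 alternatives and 0 changed direction, but 23 of the 103 were not tested at a minimum mean of 5 RPKM. These 5 were DELTA-VPE, LTP6, DRNL, LEC1 and MUM2. Of 672 list counts 28 moved by more than 1.5 times. Absolute depth is unknown, so the counting error of genes near 0 cannot be given.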
